A study of Homo sapiens with 4 samples.

Results

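The 10 genes described here are the cyclins, kinases, inhibitor and target of the G1 to S step of the cell cycle that were listed for this account, namely CCND1, CCND2, CCND3, CCNE1, CCNE2, CDK4, CDK6, CDK2, CDKN1B and RB1. All 10 were found by symbol among the 60564 gene identifiers of the count files, and all 10 passed the filter on low counts. RNA was measured in Elf1 cells, a naïve human ESC line, either in 2-D culture, adherent on Matrigel coated plastic plates, or in 3-D culture, where single cells were encapsulated in self-assembling scaffolds of PEG-8-SH and PEG-8-Acr and kept there for 21 days. Both conditions used the same ESC expansion medium, and the comparison rests on 2 biological replicates of each, or 4 libraries in all. All libraries came from 1 cell line, kept on mouse feeder cells before these cultures, and no allele or transgene differed between the conditions. The 2-D cells were routinely passaged while the scaffolds were held for 21 days, so the effect of the matrix cannot be told apart from that of time since passage.

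In G1, D-type cyclins bind CDK4 or CDK6 and E-type cyclins bind CDK2, and both kinds of complex phosphorylate RB1. Phosphorylated RB1 releases the E2F factors, which switch on genes for DNA replication, while CDKN1B (p27) binds and holds back the cyclin-kinase complexes. Pluripotent stem cells are known for a short G1 phase, and much of the control of these proteins acts after transcription, on phosphorylation and protein turnover, which counts of RNA do not show.

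None of the 10 genes differed between 3-D and 2-D grown cells by the test across all genes. With edgeR's quasi-likelihood test, 0 of 10 were called at an adjusted p below 0.05. Of the 22555 tested genes, 7.90% were called, 4.54% with a higher and 3.36% with a lower level in 3-D. An unadjusted p below 0.05 in the same test was reached by 0 of 10 members and by 4808 of the 22555 tested genes. Among the 9192 tested genes with a mean CPM within the range of the members, from 13.4 to 890, 15.6% were called. DESeq2, edgeR's likelihood ratio test and limma-trend also called 0 of 10. The median size of a member's log2 fold change was 0.0312, against 0.129 over all tested genes and 0.0792 over the genes in that range of CPM. The largest belonged to CCNE1 (0.063), and 40.8% of the genes in that range had a log2 fold change of that size or smaller. Of the members, 6 had a fitted value above 0 and 4 below 0, and in 5 of 10 the libraries of the conditions did not overlap, which was also so for 50.5% of all tested genes. Whether the members differed less than other genes was not tested.

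**Figure D1:**
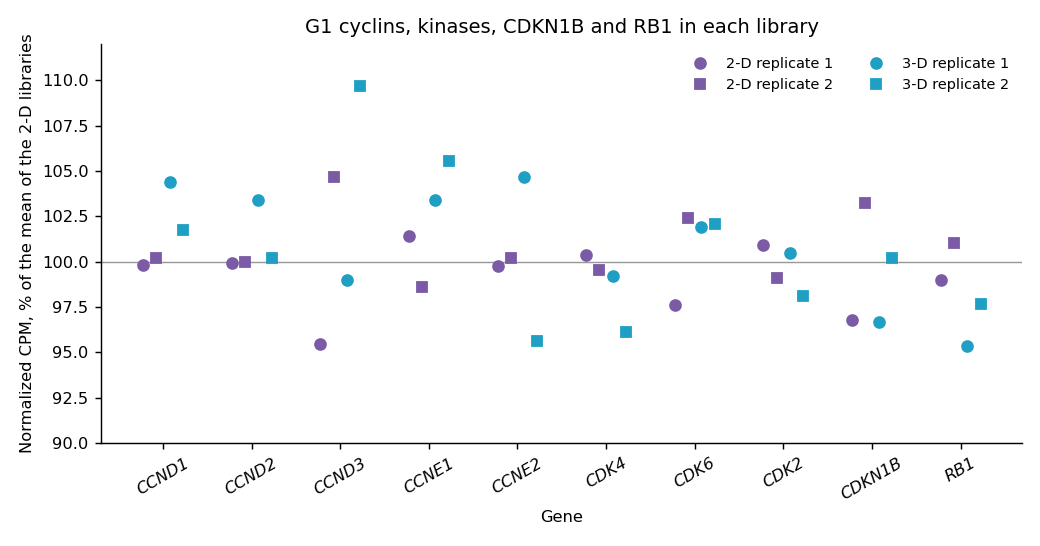
Normalized CPM of each gene in each library, as a percentage of the mean of the 2-D libraries of that gene (100 on the vertical axis), with purple for 2-D, blue for 3-D, circles for replicate 1 and squares for replicate 2. All values lie between 95.3% (RB1, 3-D replicate 1) and 109.7% (CCND3, 3-D replicate 2), and the vertical axis does not start at 0.

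The counts behind these values summed to between 18276147 and 33833778 per library, lower in the 3-D than in the 2-D libraries, and the members held between 258 (CCND3) and 30138 (CCND1) counts in a library. Values below are CPM, the count of a gene scaled to a common library size after TMM normalization, and ± is the SD of 2 libraries. In these bulk samples, fewer cells of a type and less RNA per cell cannot be told apart. The 10 pluripotency markers, OCT4 (POU5F1) among them, summed to 5496 to 5525 CPM in 2-D and 5648 to 5700 CPM in 3-D. Of these markers, 7 were higher and 3 lower in 3-D. DNMT3B alone measured 1050 and 1052 CPM in 2-D and 1164 and 1203 CPM in 3-D. POU5F1 has 6 near-identical copies elsewhere in hg38 and the naïve marker DPPA3 has 1, and the effect on their counts was not tested. Of the naïve markers, which summed to 62.6 to 66.4 CPM over all libraries, TFCP2L1 was at 22.2 to 23.8 CPM, DNMT3L at 14.6 to 17.9, KLF4 at 9.26 to 10.4, SUSD2 at 6.36 to 8.42 and DPPA3 at 5.75 to 7.43. The other 3 of the 8 were at or near 0, with 16 to 29 counts a library for KLF17, 8 to 13 for ARGFX and at most 4 for DPPA5. The 8 markers of the primed state summed to 1816 to 1873 CPM. Trophoblast markers stayed at or below 4.35 CPM in sum. Endoderm markers summed to 9.83 to 10.1 CPM in 2-D and 11.3 to 11.8 CPM in 3-D, and mesoderm markers to 67.4 to 67.7 and 72.0 to 72.85 CPM. Neural ectoderm markers summed to 583 to 589 CPM in 2-D and 606 to 608 CPM in 3-D, most of it from NES. Fibroblast markers summed to 529 to 537 CPM in 2-D and 546 to 595 CPM in 3-D, with COL1A1, COL3A1 and THY1 called higher in 3-D. COL1A2, the highest of them, measured 324.8 and 316.3 CPM in 2-D and 300.7 and 324.5 CPM in 3-D and was not called. PDGFRB was not called either, and DCN and LUM had too few counts to be tested. Whether the RNAs of this list, THY1 among them, came from fibroblasts or from the stem cells themselves was not tested. Nor was their part in the results.

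CCND1 encodes cyclin D1, the D-type cyclin best known as a sensor of growth factor signals. It lies at chr11:69641156-69654474 on the plus strand of hg38. It measured 875 and 879 CPM in the 2-D libraries and 915 and 892 CPM in the 3-D libraries. Both 3-D libraries lay above both 2-D libraries, and the 3-D libraries differed more from each other than the 2-D libraries did. The log2 fold change, taken as 3-D over 2-D throughout, was 0.043 ± 0.030 (SE, adjusted p = 0.463), a difference of 3.05% with a 95% interval from -1.51% to 7.81%.

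CCND2, for cyclin D2, at chr12:4269771-4305353 (plus strand), measured 143.7 and 143.8 CPM in 2-D and 148.7 and 144.1 CPM in 3-D. The lower 3-D library lay just above both 2-D libraries, and the gap came mostly from 3-D replicate 1. Its difference was 1.85% with an interval from -2.69% to 6.60% (adjusted p = 0.696). CCND3, for cyclin D3, at chr6:41934934-42050357 (minus strand), measured 12.5 and 13.7 CPM in 2-D and 13.0 and 14.4 CPM in 3-D. These libraries overlapped, with replicate 2 the higher of each pair. Its difference was 4.27%, and its interval, from -9.29% to 19.9%, was the widest of the 10 (adjusted p = 0.781).

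The balance among the D-type cyclins was compared as the share of each in their summed level per kb of exon. CCND1 held 90.1% ± 0.043 of it in 2-D and 90.2% ± 0.060 in 3-D, CCND2 held 8.80% ± 0.026 and 8.71% ± 0.042, and CCND3 held 1.11% ± 0.069 and 1.13% ± 0.10. Cyclin D1 was thus by far the most abundant D-type cyclin RNA in every library. The CCND1 shares of the conditions met at 90.12%, in 2-D replicate 1 and 3-D replicate 2.

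CCNE1 and CCNE2 encode the E-type cyclins, which bind CDK2 at the end of G1 and are themselves E2F targets. CCNE1, at chr19:29811991-29824312 (plus strand), measured 41.5 and 40.4 CPM in 2-D and 42.3 and 43.2 CPM in 3-D. Both 3-D libraries lay above both 2-D libraries. Its log2 fold change of 0.063 ± 0.052 (SE, adjusted p = 0.556) was the largest of the 10 and corresponded to 4.43%, with an interval from -3.39% to 12.9%.

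CCNE2, at chr8:94879770-94896678 (minus strand), measured 16.9 and 17.0 CPM in 2-D and 17.8 and 16.2 CPM in 3-D. The 3-D libraries lay on either side of the 2-D pair. The difference was 0.305% with an interval from -11.1% to 13.1% (adjusted p = 0.985). Per kb of exon, CCNE1 made up 81.2% ± 0.35 of the E-type cyclins in 2-D and 81.8% ± 1.2 in 3-D, a difference of 0.637 percentage points that was smaller than the SD of the 3-D libraries.

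**Figure D2:**
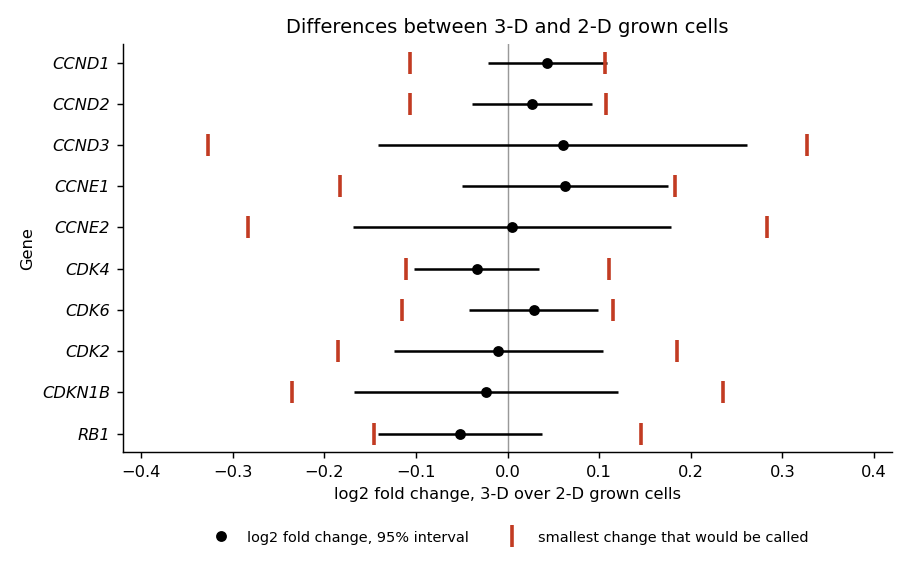
Log2 fold change (3-D over 2-D) for each gene (points) with its 95% interval (black lines), and the smallest change in each direction that would have been called at that gene's standard error (red ticks). Every interval spans 0, and the intervals are narrowest for CCND1 and CCND2 and widest for CCND3.

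CDK4 and CDK6 are the partners of the D-type cyclins. CDK4, at chr12:57747727-57756013 (minus strand), measured 113.5 and 112.6 CPM in 2-D and 112.2 and 108.7 CPM in 3-D. Both 3-D libraries lay below both 2-D libraries, by less than 1 CPM at the nearest point. Its log2 fold change was -0.033 ± 0.031 (SE, adjusted p = 0.613), or -2.29% with an interval from -6.80% to 2.43%.

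CDK6, at chr7:92604921-92836573 (minus strand), measured 187.3 and 196.5 CPM in 2-D and 195.6 and 195.9 CPM in 3-D. The 3-D libraries fell between the 2-D libraries, of which replicate 1 was the low one. The difference was 2.02% with an interval from -2.84% to 7.12% (adjusted p = 0.688). CDK4 made up 70.0% ± 0.84 of the summed level of both kinases per kb of exon in 2-D and 69.1% ± 0.50 in 3-D. The lowest 2-D share, 69.39%, was below the highest 3-D share, 69.41%, so the shares overlapped.

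CDK2, the kinase of the E-type and A-type cyclins, at chr12:55966781-55972789 (plus strand), measured 41.2 and 40.4 CPM in 2-D and 41.0 and 40.1 CPM in 3-D. The 2 conditions overlapped, and its log2 fold change of -0.0099 ± 0.052 (SE, adjusted p = 0.944) was second in smallness to that of CCNE2. Its interval ran from -8.22% to 7.47%.

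CDKN1B, the inhibitor, at chr12:12685498-12722369 (plus strand), measured 27.4 and 29.2 CPM in 2-D and 27.3 and 28.3 CPM in 3-D. The libraries overlapped, and the 2-D pair was spread more widely than the 3-D pair. The difference was -1.60% with an interval from -11.0% to 8.74% (adjusted p = 0.891). The ratio of CDKN1B to CDK2 per kb of exon was 0.279 and 0.303 in 2-D and 0.280 and 0.297 in 3-D, with the 3-D values inside the range of the 2-D values.

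RB1, the pocket protein that the kinases act on, at chr13:48303744-48599436 (plus strand), measured 57.7 and 58.9 CPM in 2-D and 55.6 and 56.9 CPM in 3-D. Both 3-D libraries lay below both 2-D libraries. Its log2 fold change was -0.052 ± 0.041 (SE, adjusted p = 0.539), or -3.51% with an interval from -9.33% to 2.68%. It was the lowest fold change of the 10.

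How small an estimated difference would have been called differed from gene to gene. The highest unadjusted p of any called gene was 0.00394, and at the standard errors of this fit a rise of 7.64% in CCND1, 7.71% in CCND2 or 7.98% in CDK4 would have reached it. For CCND3, the least counted member, a rise of 25.5% was needed, and for CCNE2 one of 21.6%. The intervals, taken singly and not adjusted over the members, leave out a rise above 19.9% and any value below -11.1%, within this model and this normalization. Standard errors depended on the model. For CCND3 the standard error was 0.0925 here, 0.159 in DESeq2 and 0.0889 in limma-trend. For CCNE2 it was 0.0799, 0.14 and 0.0747. In DESeq2 it was larger than here for every member. For each gene, an estimate smaller than its own callable size would not have been called at that standard error, with 2 libraries a condition. The callable size is that of an estimate, and how often a true change of that size would be called was not tested. An exact permutation test of 2 against 2 libraries was not used for single genes, since its p cannot go below 0.333.

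The direction of the small differences depended on whether libraries were scaled by more than their size. With size factors from DESeq2 in place of TMM, every member kept its direction. The median log2 fold change of all tested genes was then -0.000441. With library size alone in place of TMM, the median log2 fold change of all tested genes moved to -0.0646, the calls changed from 1024 higher and 758 lower to 514 higher and 1879 lower, and the fitted values of CCND1, CCND2, CCND3, CCNE1, CCNE2 and CDK6 turned from above 0 to below 0. No member was called under it, and the lowest adjusted p of a member there, and in any alternative, was 0.0676 for CDK4.

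Levels of different members were compared as CPM per kb, first of merged exons and then of the longest transcript. Means over the 2-D libraries were 184.2 for CCND1, 36.5 for CDK4, 18.0 for CCND2, 16.6 for CCNE1, 15.7 for CDK6, 10.5 for CDK2, 9.06 for RB1, 3.86 for CCNE2, 3.06 for CDKN1B and 2.28 for CCND3. The order was the same in 3-D, where CCND1 had 189.8 and CCND3 2.38, and no neighbours in this order overlapped between libraries of a condition. With the length of the longest transcript instead, CCND2 and CCNE1 overlapped in each condition, and CDKN1B (6.53 in 2-D) and CCND3 (5.48) lay above CCNE2 (5.10), so the order at the low end depended on the length used.

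**Figure D3:**
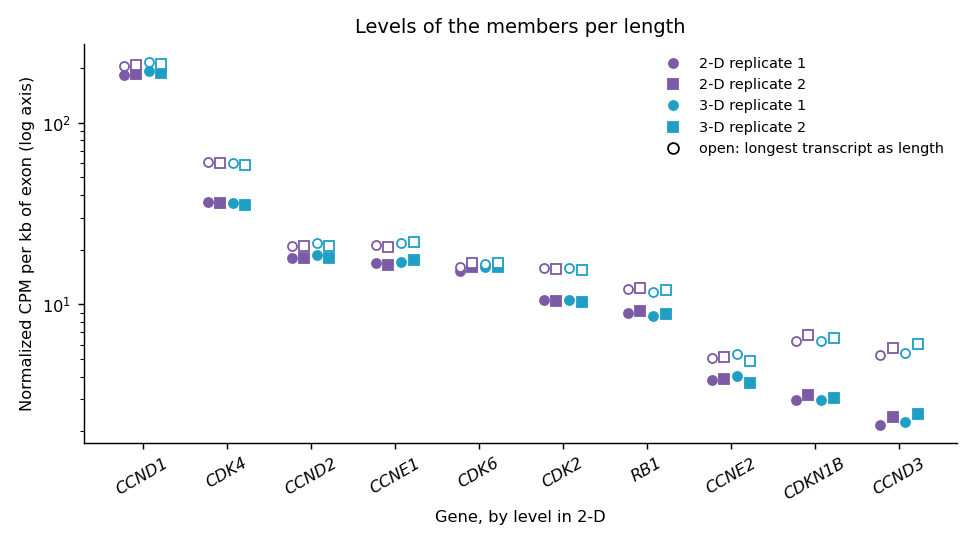
Normalized CPM per kb of exon on a log axis for each gene in each library, with filled symbols for the length of the merged exons and open symbols for that of the longest transcript (purple 2-D, blue 3-D, circles replicate 1, squares replicate 2). CCND1 is the highest gene by either length, at 183.8 to 192.3 with merged exons, and libraries of a gene nearly coincide.

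Whether reads were counted by strand is not given in the sources used here, which bears on members that share exon bases with a gene on the other strand. CDK4 shares 44.2% of its merged exon bases with TSPAN31, CCNE2 shares 37.0% with INTS8, CDK2 shares 14.5% with the long non-coding gene ENSG00000258554 and CCND1 shares 10.4% with LTO1. The percent of shared bases does not give the size of an error in the counts. How far the overlaps affect the values of these members, or the shares that use them, was not tested. No member had a near-identical copy elsewhere in hg38.

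The other genes of the pathway were read from the same fit, from lists of 80 genes in 7 groups, of which 78 were tested. Of these, 9 were called higher and 8 lower in 3-D, beside 7.90% of all tested genes and 15.6% of those in the members' range of CPM, and whether these lists differed from the members was not tested. Their median log2 fold change was 0.0166, and the median of its size was 0.0794. The size was close to that of the genes in the members' range of CPM. Of the 17 called genes, 7 were called in each of the 14 alternatives.

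Among proliferation markers, 3 of 10 were called, all higher. MKI67, which encodes the Ki-67 antigen, measured 427.6 and 417.7 CPM in 2-D and 521.0 and 498.3 CPM in 3-D, a log2 fold change of 0.27 ± 0.033 (SE, adjusted p = 0.000363). PLK1, a mitotic kinase, measured 111.9 and 108.1 CPM in 2-D and 127.8 and 133.8 CPM in 3-D, a log2 fold change of 0.25 ± 0.034 (SE, adjusted p = 0.000745). TPX2, a spindle protein, had 0.15 ± 0.030 (SE, adjusted p = 0.00986). For these genes both 3-D libraries lay above both 2-D libraries. Of the S, G2 and M cyclins with CDK1, 2 of 6 were called, and both lower. CDK1, the mitotic kinase, is among the genes that the study picked from these samples, and it measured 117.2 and 119.4 CPM in 2-D and 102.3 and 101.8 CPM in 3-D, a log2 fold change of -0.21 ± 0.031 (SE, adjusted p = 0.00116). CCNA1, the A-type cyclin of the germ line, had -0.41 ± 0.069 (SE, adjusted p = 0.00314). Genes of later cell cycle stages thus moved in both directions.

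Of the partners and regulators of the cyclin-kinase complexes, 5 of 16 tested were called. CKS1B, a small subunit that helps the SCF ligase take up CDKN1B, measured 64.9 and 63.6 CPM in 2-D and 54.0 and 52.4 CPM in 3-D, with a log2 fold change of -0.27 ± 0.041 (SE, adjusted p = 0.00154). CDC37, the chaperone that loads CDK4 onto HSP90, was higher, at 0.22 ± 0.038 (SE, adjusted p = 0.00334). AMBRA1, which directs D-type cyclins to degradation, was higher (0.17, adjusted p = 0.0405) and CCNC, cyclin C, lower (-0.13, adjusted p = 0.0350). AMBRA1 kept its call in 5 and CCNC in 8 of the 14 alternatives. CDK7, the kinase that activates the CDKs, had the highest log2 fold change of the lists, 2.03 ± 0.42 (SE, adjusted p = 0.0109), with 1.37 and 7.92 CPM in 2-D and 17.4 and 19.7 CPM in 3-D. Its 2-D libraries were far apart, leaving out 2-D replicate 1 gave 1.22 and leaving out 2-D replicate 2 gave 3.76, and DESeq2 did not call it (adjusted p = 0.345). Its transcript has a near-identical copy on an alternate contig of hg38.

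Of the pocket proteins, the DREAM core and MYBL2, read as 1 list, 1 of 8 was called, and it was MYBL2. MYBL2, the B-MYB factor of late G1 and S phase, measured 176.2 and 168.8 CPM in 2-D and 199.1 and 207.5 CPM in 3-D, with a log2 fold change of 0.24 ± 0.034 (SE, adjusted p = 0.00111). Of the E2F and DP factors, 2 of 10 were called, both lower, E2F6 (-0.33 ± 0.069, adjusted p = 0.0122), a repressor that does not bind RB1, and E2F5 (-0.15 ± 0.041, adjusted p = 0.0464), a partner of the RB1 relatives p107 and p130. Of 22 E2F target genes of the G1 to S step, UHRF1 (0.16, adjusted p = 0.0219) and MCM5 (0.14, adjusted p = 0.0427) were called higher and TYMS (-0.11, adjusted p = 0.0344) lower, and the median of the list was 0.0405. Of 6 tested CDK inhibitors other than CDKN1B, CDKN1C (p57) was called lower (-1.88 ± 0.45, adjusted p = 0.0235), from 41 and 29 counts in 2-D to 3 and 8 in 3-D. Its log2 fold change was -1.25 with 3-D replicate 1 left out and -2.84 with 3-D replicate 2 left out. Its transcript also has a near-identical copy on an alternate contig.

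The remaining 10 calls depended on the method or on the number of libraries. With all 4 libraries, DESeq2 did not call 8 of them. These were CDK7, E2F6 (adjusted p = 0.0767), E2F5 (0.293), AMBRA1 (0.255), CCNC (0.140), MCM5 (0.107), TYMS (0.242) and UHRF1 (0.0995). DESeq2 called TPX2 (adjusted p = 0.0212) and gave no value for CDKN1C. CDKN1C also had no value with at least 10 counts in every library, which left it with 12 alternatives. The likelihood ratio test did not call 7, namely E2F5, AMBRA1, CCNC, MCM5, TYMS, UHRF1 and TPX2, and the offsets for length and GC content ended the calls of E2F5, AMBRA1, CCNC, MCM5 and TYMS, with smaller fold changes. Library size only ended those of AMBRA1, MCM5, UHRF1 and TPX2.

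When a library was left out, the standard errors of the lost calls were larger, other than that of MCM5 without 3-D replicate 2, and the fold changes were in several genes about as large as before. Without 2-D replicate 1, the lost calls had log2 fold changes of -1.69 for CDKN1C (adjusted p = 0.111), -0.15 for E2F5 (0.219), -0.31 for E2F6 (0.0595), 0.14 for AMBRA1 (0.367), 0.13 for MCM5 (0.143), -0.11 for TYMS (0.295) and 0.15 for TPX2 (0.0993). Without 2-D replicate 2, they were -0.15 for E2F5 (adjusted p = 0.273), 0.20 for AMBRA1 (0.115), -0.097 for CCNC (0.400), 0.14 for MCM5 (0.173), -0.12 for TYMS (0.216), 0.12 for UHRF1 (0.229) and 0.15 for TPX2 (0.109). Leaving out 3-D replicate 1 gave -1.25 for CDKN1C (adjusted p = 0.117) and -0.10 for E2F5 (0.220), and leaving out 3-D replicate 2 gave 0.16 for AMBRA1 (0.0770) and 0.079 for MCM5 (0.0826). MYBL2, CKS1B, CDC37, CCNA1, CDK1, MKI67 and PLK1 were called in each of the 14 alternatives.

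**Figure D4:**
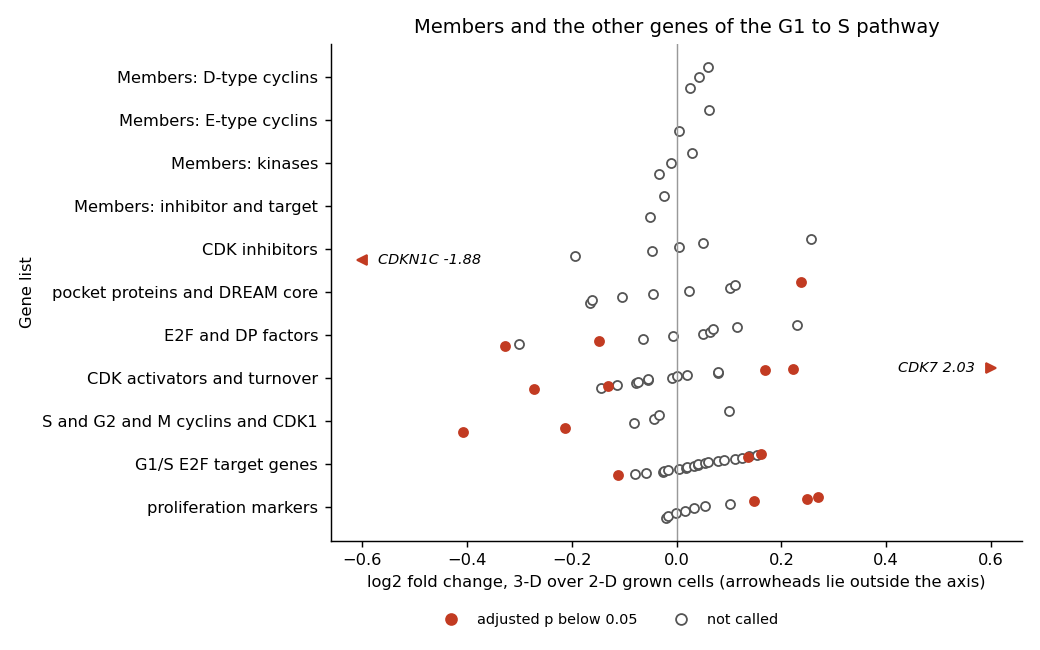
Log2 fold change (3-D over 2-D) for each tested gene of the members (top 4 rows) and of the other pathway lists, filled red where called at an adjusted p below 0.05 and open otherwise, with CDKN1C (-1.88) and CDK7 (2.03) drawn as arrowheads at the edge. The members lie between -0.05 and 0.06 with no call, and the other lists hold 9 calls to the right of 0 and 8 to the left.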

How the data were processed

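RNA of Elf1 cells was measured by RNA-seq after ribosomal RNA depletion, with 2 libraries each from 2-D and 3-D culture. The authors trimmed paired-end reads with Trim Galore 0.6.3, mapped them to hg38 with HISAT2 2.1.0 and counted them on GENCODE genes with featureCounts 1.6.4. The counts were deposited without normalization, 1 whole number for each gene and library. The deposited normalized signal is the same counts divided by 1 constant per library. The authors' comparison columns (mean, fold change, error, statistic and p-values, from DESeq2 2.11.40.6) were not used. Strand setting and treatment of multi-mapped reads are not given in the sources used here.

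Library totals were 33833778 and 30114220 in 2-D and 21154409 and 18276147 in 3-D. Of 60564 identifiers, 60295 were matched to GENCODE release 44, and the 269 others held 0.122% of the counts. Replicates differed by more than sampling noise (chi-square over degrees of freedom 2.27 in 2-D and 3.92 in 3-D). Counts were fitted with edgeR 4.0.16 in R 4.3.3 (TMM, its filter on low counts, quasi-likelihood test, condition alone, Benjamini-Hochberg over 22555 genes, called below 0.05). The standard error is the size of the log2 fold change over the square root of F, and 95% intervals use it. Intervals cover the spread between libraries as fitted. The lengths are of merged exons or of the longest transcript. A near-identical copy is an alignment elsewhere over at least 80% of a transcript with at least 98% identity (minimap2 2.31-r1302).

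The alternatives were DESeq2 1.42.0, the likelihood ratio test, other scalings (library size only, or size factors from DESeq2), other filters (a minimum of 10 counts per library, or no filter), offsets for length and GC content, a replicate block, both of these together, limma-trend (limma 3.58.1) on the log2 of the deposited signal plus 1, and each library left out in turn. The fit was tested on simulated counts. The members and lists were chosen with earlier results of these data known. The genes named are all members, up to 6 called genes a list, and the lowest and highest gene of a list with none called. Python 3.11.15 with numpy 2.4.6, pandas 2.3.3, scipy 1.17.1 and matplotlib 3.10.9 wrote the tables and figures.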

Additional observations from a re-analysis of the deposited data

How the results depend on the processing

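No member was called in any of 14 alternatives. Of the 140 values of members under them, 125 kept their direction and 15 changed sign, and the largest was 0.136 in size on the log2 scale. With library size only, log2 fold changes turned to -0.021 (CCND1), -0.038 (CCND2), -0.0041 (CCND3), -0.0018 (CCNE1), -0.060 (CCNE2) and -0.036 (CDK6). With at least 10 counts in every library, CCNE2 turned to -0.0029. With 1 library left out, the range crossed 0 for CCND3 (-0.011 to 0.136), CCNE2 (-0.063 to 0.068), CDK6 (-0.0062 to 0.064), CDK2 (-0.027 to 0.0084) and CDKN1B (-0.070 to 0.023). The 1782 calls over all genes became 1139 with the likelihood ratio test and 795 with DESeq2, and lay between 974 and 2643 with 1 library left out. The 17 calls of other pathway genes became 10 and 8, and lay between 10 and 25. The cause was not tested. The sources used here do not say whether replicates of the same number were paired between conditions. The correlation of their deviations between conditions was -0.0079, which cannot show how the libraries were made. A replicate block gave 2167 calls over all genes, 22 of other pathway genes and 0 members. By the length of the longest transcript, the shares were 88.66% and 88.73% for CCND1, 80.44% for CCNE1 in 2-D and 78.65% and 77.91% for CDK4. Depth limits CCND3 and CCNE2 most.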

Other observations

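Marker lists of other cell types were read from the same fit, with values given as log2 fold changes (3-D over 2-D). Over all tested genes, 7.90% were called, and 15.6% of those in the members' range of CPM. Pluripotency markers had 1 of 10 called, DNMT3B (0.17, adjusted p = 0.00429), and primed markers had 2 of 8, SFRP2 (0.28, adjusted p = 0.000222) and SALL2 (0.21, adjusted p = 0.000945). Of fibroblast markers, COL3A1 (0.73, adjusted p = 0.000704), COL1A1 (0.29, adjusted p = 0.000779) and THY1 (0.22, adjusted p = 0.00453) were called higher, of 5 tested. COL1A2 (-0.037) and PDGFRB (0.017) were not called. With edgeR's quasi-likelihood test, no gene was called in the other lists, whose lowest and highest values were those of DPPA3 (-0.07) and KLF17 (0.51) for the naïve state, CXCR4 (-0.14) and GATA6 (1.0) for endoderm, EOMES (-0.04) and HAND1 (0.98) for mesoderm, TUBB3 (-0.16) and PAX6 (0.40) for neural ectoderm, and TFAP2A (-0.21) and CDX2 (0.75) for trophoblast. In these 5 lists, 1 of 7 tested naïve, 1 of 4 endoderm and 2 of 5 mesoderm genes had an unadjusted p below 0.05, and 0 in the neural ectoderm and trophoblast lists. Over all tested genes, 4808 of 22555 had one.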
